A study of Mus musculus with 4 samples.

Results

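The cholangiocyte markers described here are 8 genes, Krt7, Krt19, Epcam, Sox9, Spp1, Pkhd1, Cftr and Sox4, that are used to recognise the epithelial cells lining the bile ducts. They were taken from the array by gene symbol, and every probe with such a symbol was included. They were read by 14 of the 41174 probes on the array, and by 8 of its 21260 gene symbols. Whole liver RNA came from male C57Bl/6 mice that were 3 months old. One group was 4 Wrn mutant mice that drank water with 0.4% vitamin C from weaning, and the other was 4 wild-type mice that received no vitamin C. Wrn encodes a RecQ helicase that unwinds DNA, and the labels do not name the mutant allele. Each of 4 Agilent arrays carried 1 mutant labelled with Cy5 and 1 wild-type animal labelled with Cy3. The dyes were never swapped, and mutants without vitamin C or wild-type mice with it were not analysed here. Effects of genotype, of vitamin C and of the dye therefore cannot be told apart.

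Cholangiocytes arise from fetal liver progenitors under Notch and TGF-beta signals, and Sox9 is among the first genes to mark the forming duct. In the adult they are a small minority of liver cells and modify the bile that hepatocytes secrete, adding chloride and bicarbonate through apical channels. Each bears a primary cilium that senses flow, and defects of ciliary or glycoprotein-processing genes cause cystic ducts. In a bulk sample, fewer cholangiocytes and less RNA per cholangiocyte cannot be told apart. Some of the markers are also made by other liver cells, such as Spp1 by activated stellate cells and macrophages.

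Sequences are shown because probes of the same gene gave different results, and the letters show which stretch of the transcript each one read. They are printed 5′ to 3′ as the array annotation gives them, whole for the 60-base probes first in the list and as the last 30 bases for the others. The capitals mark AATAAA, the motif that directs polyadenylation, which was searched on the printed strand only and occurs in 4.78% of all probes on the array. It was present in 1 of the 14 marker probes. The position of a probe within its transcript was not determined here.
Sox9 A_51_P451606: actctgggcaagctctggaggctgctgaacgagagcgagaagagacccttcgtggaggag
Pkhd1 A_51_P322482: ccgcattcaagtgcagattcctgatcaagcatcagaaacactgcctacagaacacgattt
Pkhd1 A_52_P576007: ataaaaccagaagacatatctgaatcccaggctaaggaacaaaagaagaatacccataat
Krt7 A_52_P410685: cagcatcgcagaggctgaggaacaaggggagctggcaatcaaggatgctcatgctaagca
Krt19 A_51_P356642: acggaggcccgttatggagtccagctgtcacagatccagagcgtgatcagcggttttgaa
Sox9 A_52_P577484: gagctcatgacaacatattgcaaatggccg
Sox9 A_52_P214630: catctttcgatttctgtataaaaacagacc
Pkhd1 A_52_P377941: tataaatactgaatttcagtaagcaggaac
Spp1 A_51_P358765: gtaaccaaaagcttctgcactttgcttctg
Krt7 A_51_P312348: tAATAAAgggcctctctgagagagctgcat

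Ratios are log2 of mutant over wild type on the same array, and levels are log2 intensities of a channel after normalization within and between arrays. Whether the mean over 4 arrays differed from 0 was tested with limma, and a probe was called at a Benjamini-Hochberg adjusted p under 0.05 over all 39080 probes that passed the signal filter. Of the 14 marker probes, 13 passed it, and every marker gene kept at least 1 probe. Among them 3 were called lower, for Spp1, Sox9 and Pkhd1, against a background of 6.79% of all probes called lower. Another 1 was called higher, for Pkhd1, against 6.19%. The other 9 were not called, and the mean of 9 of the 13 lay below 0. Their median log2 ratio was -0.12, beside 0.00 over all probes. The number called lower was 3 with all arrays but between 0 and 2 when any 1 array was left out, and 0 when the channels were treated as unpaired samples. Calls fell over the whole array as well. Probes called lower numbered 2655 with all arrays, 98 to 1249 with 1 array left out, and 10 with unpaired channels. The arrays shared 1 slide and 1 scan time, and 82.1% and 83.8% of probes were well above background on array 1 in the mutant and the wild-type channel, against 94.4% or more in every channel of the others.

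**Figure D1:**
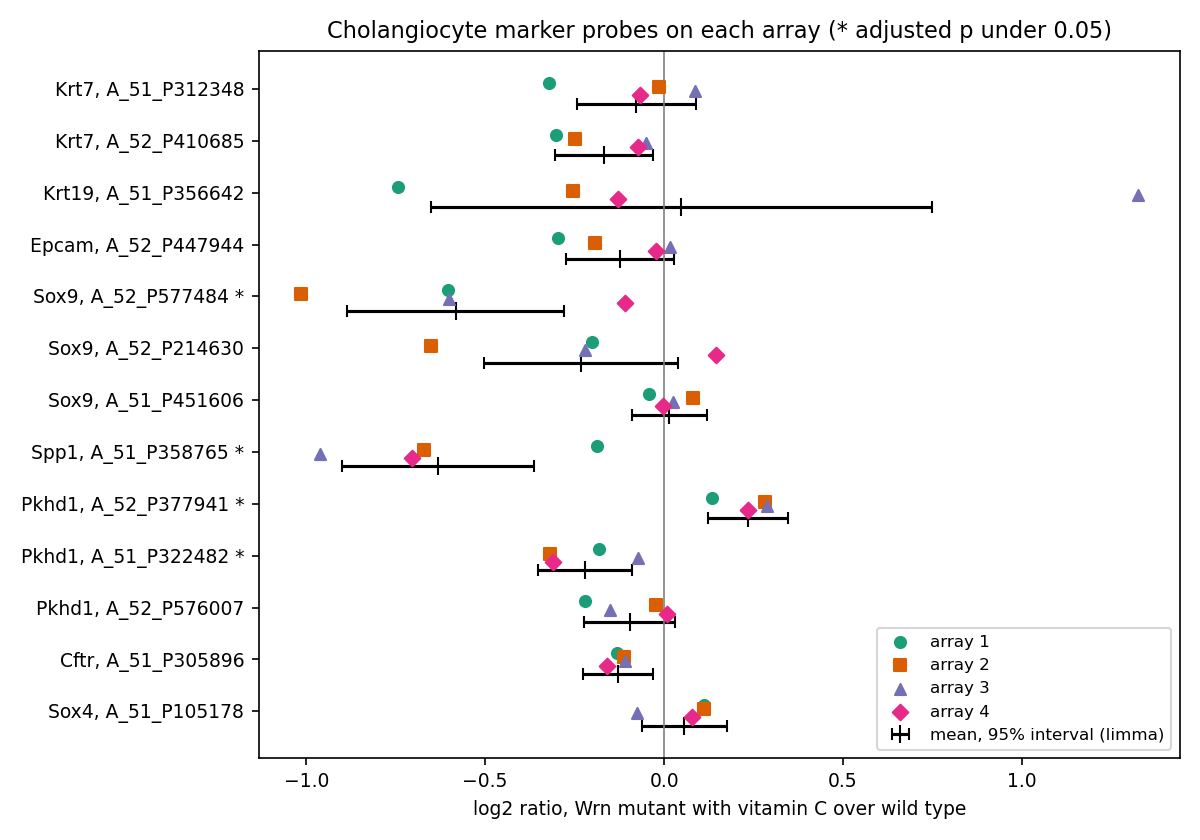
Log2 ratio of Wrn mutant with vitamin C over wild type for each marker probe, with 1 point per array and the mean with its 95% interval from limma. Asterisks mark an adjusted p under 0.05. Spp1 lies below 0 on every array, the Sox9 and Pkhd1 probes separate from each other, and Krt19 spans -0.74 to 1.32.

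Spp1, which encodes osteopontin, a secreted matrix protein that binds integrins and CD44, had the lowest mean ratio of the markers, close to that of a Sox9 probe. Its probe A_51_P358765 had log2 levels of 13.75, 13.49, 13.39 and 13.61 in mutant livers of arrays 1, 2, 3 and 4, against 13.94, 14.16, 14.35 and 14.31 in wild-type livers. Every mutant level lay below every wild-type level, which held for no other marker probe and for 4.28% of all probes, while every mutant level lay above every wild-type level for 2.90%. The ratios were -0.19, -0.67, -0.96 and -0.71, so array 1 had the smallest difference and array 3 the greatest. The mean of -0.63 ± 0.32 (SD, n = 4) is a level 0.645 times that of wild type, with a 95% interval of the log2 ratio of -0.90 to -0.36 and an adjusted p of 0.0223 by limma. The mean without array 1 was -0.78. The call was lost without array 2 (adjusted p = 0.0906) or array 4 (adjusted p = 0.0635) in limma, with means of -0.62 and -0.61, and with unpaired channels (adjusted p = 0.163).

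The Spp1 probe was printed as 10 spots, so each array held repeated readings of it. Those used on array 3 gave ratios of -1.06 to -0.86, with an SD of 0.074. On array 1 they gave -0.27 to -0.07, with an SD of 0.066. Spots of the same array thus differed by far less than the 4 animal pairs did, whose SD was 0.32. In the authors' deposited table, all 10 Spp1 rows had an adjusted p under 0.05 and their log2 fold changes lay between -0.71 and -0.52. These rows are spots of 1 probe on the same 4 arrays, so they are not separate support. Over that whole table, 4283 of 43379 rows had an adjusted p under 0.05.

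**Figure D2:**
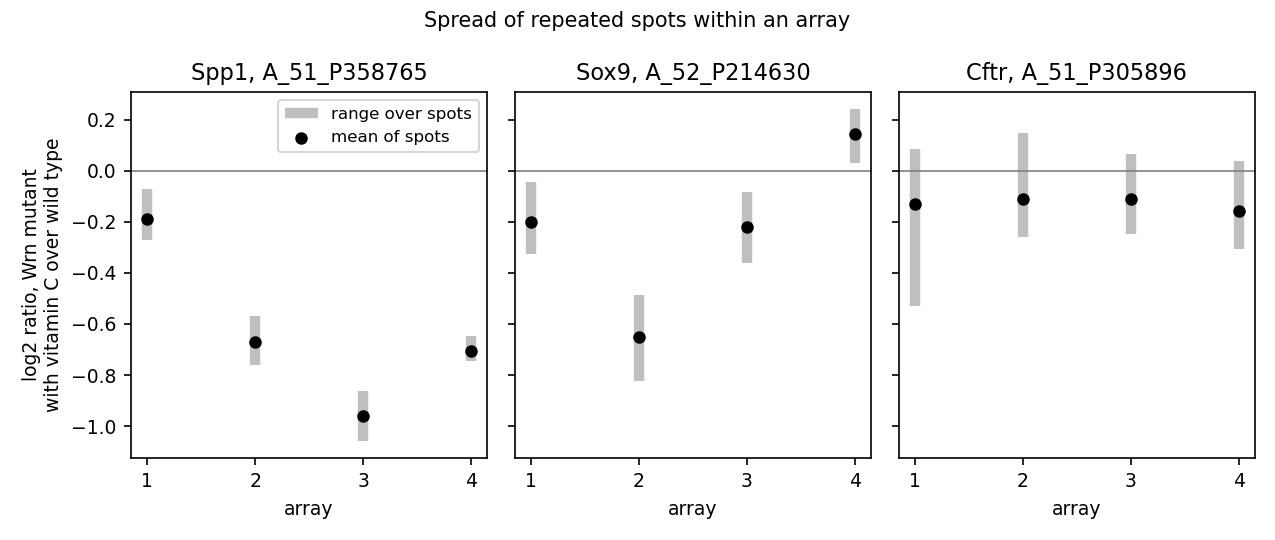
Log2 ratio of Wrn mutant with vitamin C over wild type for the Spp1, Sox9 and Cftr probes that were printed 10 times, by array, with the range over spots as a bar and their mean as a point. The Spp1 bars are short beside the distance between arrays, with array 3 between -1.06 and -0.86 and array 1 between -0.27 and -0.07.

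Sox9 encodes a transcription factor of duct progenitors and adult duct cells, and its 3 probes did not give the same result. On probe A_52_P577484 the log2 levels were 8.94, 9.19, 9.36 and 9.69 in mutant livers, against 9.55, 10.20, 9.96 and 9.80 in wild-type livers. The mutant was lower within each array, but the mutant of array 4 lay above the wild-type animal of array 1, so the groups overlapped. The ratios were -0.60, -1.02, -0.60 and -0.11, with a mean of -0.58 ± 0.37 (SD, n = 4), a 95% interval of -0.89 to -0.28 and an adjusted p of 0.0339 by limma. The call was lost without array 1 (adjusted p = 0.0935), array 2 (0.0993) or array 3 (0.0765) in limma, where the mean was between -0.58 and -0.44.

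The second Sox9 probe, A_52_P214630, was printed as 10 spots and had log2 levels of 9.20, 8.75, 9.01 and 9.22 in mutant livers, against 9.40, 9.40, 9.23 and 9.08 in wild-type livers. Its ratios of -0.20, -0.65, -0.22 and 0.14 had their lowest value on array 2 and their highest on array 4, as those of the first probe did. The mean was -0.23 ± 0.33 (SD, n = 4) and was not called (adjusted p = 0.208 by limma). Its spots on array 2 lay between -0.83 and -0.49, and on array 4 between 0.03 and 0.24. The third probe, A_51_P451606, was close to 0 on every array, from -0.04 to 0.08, and its mean was 0.01 ± 0.05 (SD, n = 4). It was well above background on all 4 arrays, and its adjusted p was 0.843 by limma. Its signal was dim, with log2 levels of 7.37 to 7.48 in mutant and 7.34 to 7.52 in wild-type livers. Its mean intensity stood at percentile 13.6 of the kept probes, against 51.7 and 44.4 for the first and second probes. A small change could therefore be missed on it, and with Agilent's processed signals its mean was 0.16, not called. Averaged over its probes, Sox9 stood at -0.27 on the log2 scale and was not called (adjusted p = 0.084 by limma).

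**Figure D3:**
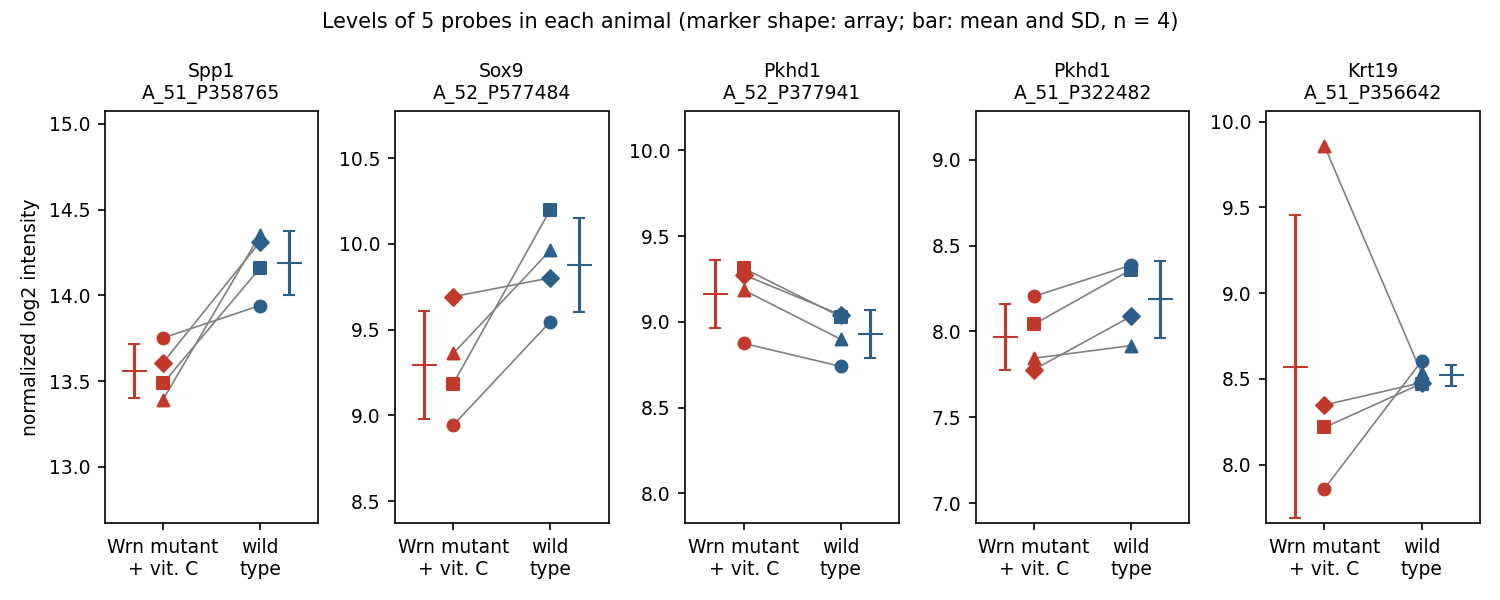
Log2 channel level of 5 marker probes in Wrn mutant livers with vitamin C, drawn on the left of each panel, and wild-type livers on the right, with lines joining the animals of 1 array and bars for the mean and SD of 4 animals. Spp1 levels do not overlap between the groups, Sox9 A_52_P577484 is lower in the mutant of every array but the groups overlap, and the Krt19 level of 9.86 in the mutant of array 3 stands above the other 7 livers.

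Pkhd1 encodes fibrocystin, a membrane protein of the primary cilium whose loss causes autosomal recessive polycystic kidney and liver disease in humans. Its 3 probes moved in different directions. Probe A_52_P377941 had log2 levels of 8.87, 9.31, 9.19 and 9.27 in mutant livers, against 8.74, 9.03, 8.90 and 9.04 in wild-type livers. The mutant was the higher of the pair on every array, although the mutant of array 1 lay below 3 of the wild-type livers. The ratios were 0.13, 0.28, 0.29 and 0.23, with a mean of 0.23 ± 0.07 (SD, n = 4), a 95% interval of 0.12 to 0.35 and an adjusted p of 0.0279 by limma. Leaving out any 1 array ended the call, with adjusted p from 0.0531 without array 1 to 0.101 without array 2, while the mean stayed between 0.22 and 0.27.

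Probe A_51_P322482 of Pkhd1, which the array annotation assigns to an Ensembl transcript rather than the RefSeq one, went the other way. Its log2 levels were 8.21, 8.04, 7.84 and 7.78 in mutant livers, against 8.39, 8.36, 7.92 and 8.09 in wild-type livers, so the mutant was lower on every array and the groups overlapped. The ratios were -0.18, -0.32, -0.07 and -0.31, with a mean of -0.22 ± 0.12 (SD, n = 4) and an adjusted p of 0.0467 by limma. The call held without array 3 and was lost without array 1, 2 or 4, with adjusted p of 0.105, 0.150 and 0.147. With Agilent's processed signals both probes gave larger ratios, 0.40 and -0.40, and the lower call was lost (adjusted p = 0.0534). The third probe, A_52_P576007, had a mean of -0.10 ± 0.11 (SD, n = 4) and was not called (adjusted p = 0.259). The mean over the 3 probes was -0.03, with an adjusted p of 0.667 by limma, so no direction for the gene as a whole can be given.

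Krt7 and Krt19 encode the keratins that pathologists stain to find bile ducts, and neither was called. Probe A_52_P410685 of Krt7 had ratios of -0.30, -0.25, -0.05 and -0.07, below 0 on 4 of 4 arrays, with a mean of -0.17 ± 0.13 (SD, n = 4) and an adjusted p of 0.0979 by limma. Probe A_51_P312348, the one with AATAAA, had ratios of -0.32, -0.01, 0.09 and -0.07 and a mean of -0.08 ± 0.17 (SD, n = 4, adjusted p = 0.479 by limma). The 95% intervals of the means were -0.30 to -0.03 and -0.24 to 0.09.

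Krt19 had the widest spread of the 13 probes. Its log2 levels were 7.86, 8.22, 9.86 and 8.35 in mutant livers, against 8.60, 8.47, 8.53 and 8.48 in wild-type livers. The 4 wild-type livers lay close together, with an SD of 0.061, whereas the mutants had an SD of 0.88 because 1 was above all wild-type livers and the other 3 were below them. The ratios were -0.74, -0.26, 1.32 and -0.13, and their mean of 0.05 ± 0.89 (SD, n = 4) gave an adjusted p of 0.925 by limma. Without array 3 the mean was -0.38 and was not called either (adjusted p = 0.100).

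Epcam encodes an adhesion molecule on the surface of duct and progenitor cells, and in the liver it separates them from hepatocytes. Its probe A_52_P447944 had ratios of -0.30, -0.19, 0.02 and -0.02, and its mean of -0.12 ± 0.15 (SD, n = 4) was not called (adjusted p = 0.223 by limma). It was well above background in 3 of 4 mutant livers and in 4 of 4 wild-type livers.

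Cftr, the chloride channel of the apical membrane that is mutated in human cystic fibrosis, gave dim signals. Probe A_51_P305896 was well above background on 3 of 4 arrays in both channels, and on array 1 in only 1 of its 10 spots in the mutant channel and 3 in the wild-type channel. Its ratios were -0.13, -0.11, -0.11 and -0.16, with a mean of -0.13 ± 0.02 (SD, n = 4), the smallest SD of the markers. The adjusted p was 0.0823 by limma. The probe was called lower on the authors' ratios, with a mean of -0.21 and an adjusted p of 0.0424 by limma, and with median centring, at -0.31 (adjusted p = 0.0227). In the authors' deposited table, 4 of its 10 rows had an adjusted p under 0.05, against 4283 of 43379 rows over the whole table. The 10 rows are spots of this probe on the same arrays. Probe A_52_P452881 was not well above background in any liver, so it was not tested and no fold is given for it.

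Sox4, a transcription factor related to Sox9 that acts in forming ducts, had ratios of 0.11, 0.11, -0.08 and 0.08 on probe A_51_P105178. Its mean was 0.06 ± 0.09 (SD, n = 4), with a 95% interval of -0.06 to 0.18 and an adjusted p of 0.479 by limma. It was the only gene of the 8 besides Krt19 for which no probe with a mean below 0 was found.

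The arrays differed in how many of the 13 marker probes lay below 0. There were 11 on array 1, 10 on array 2, 8 on array 3 and 9 on array 4, while the probes below 0 over the whole array were between 47.6% and 49.8%. The probes behind the low values were not the same on each array. Array 1 had the smallest fall of Spp1 but the lowest Krt7, Krt19 and Epcam ratios, and array 3 had the greatest fall of Spp1 beside the high Krt19.

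Taken by the brightest probe of each gene, 2 of the 8 markers were lower (Spp1 and Sox9), 1 was higher (Pkhd1) and 5 did not pass. Over the 20645 genes with a symbol, 6.64% were lower and 7.01% were higher. Some genes of the lists that follow were called on a dimmer probe but not on the brightest one, 13 in all, and these are named as found after the values were seen and are not in the counts. Over all probes 13.0% were called in either direction. The share of the lists' dimmer probes that were called was not computed, so these genes are given as values only. Of 24 other genes of the bile duct epithelium, 3 were lower and 0 were higher, with a median log2 ratio of -0.02 beside 0.01 over all genes. Cdh1, which encodes the epithelial adhesion protein E-cadherin, fell by 0.42 log2 units (SD 0.28, n = 4), Onecut2, a transcription factor of liver progenitors, fell by 0.39 (SD 0.25), and Cldn3, a tight junction claudin, fell by 0.18 (SD 0.04). The other 2 Onecut2 probes gave -0.20 and -0.23 and were not called, and a dimmer probe of Bicc1 was called lower at -0.22. With median centring instead of loess, 0 of the 24 were lower, 2 were higher and Cldn3 was at 0.10. Over all probes, median centring raised the calls to 4292 higher and 3011 lower, from 2421 and 2655 with loess. The counts with median centring in the lists below stand against that change. Of 16 genes of duct ion and bile transport, only Sstr2, a receptor for somatostatin, which inhibits secretin-driven bile flow, was called by its brightest probe, at 0.29 ± 0.11 log2 units (SD, n = 4). A dimmer probe of P2ry2, a receptor for extracellular nucleotides, was called higher at 0.19, and with median centring 2 genes of the list were higher.

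Notch signalling directs progenitors into the duct lineage, and of 23 measured genes 5 were lower and 1 was higher. Hes1, a repressor that is a direct target of Notch, fell by 0.60 log2 units (SD 0.19, n = 4, adjusted p = 0.0118 by limma). Maml1, a coactivator of the Notch complex, fell by 0.44 (SD 0.12), and Adam10, which cleaves the receptor, fell by 0.22 (SD 0.06). Notch2, the main receptor in duct formation, was higher by 0.35 ± 0.20 (SD, n = 4) on its brightest probe, while its other probes gave 0.16 and 0.13 and were not called. Dimmer probes of Notch1 and Heyl were called lower, at -0.29 and -0.22, while their brightest probes gave 0.02 and -0.07 and were not called. Hes5, Hey1, Hey2 and Nrarp of the same list gave 0.05, -0.05, 0.02 and 0.20 and were not called. The list's median log2 ratio was -0.01.

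Hippo signalling restrains YAP, a coactivator that can turn hepatocytes towards a duct fate, and of 20 genes 3 were lower and 0 were higher, with a median of -0.07. Ccn1, a secreted matrix protein and YAP target, fell by 0.65 log2 units (SD 0.33, n = 4), and Amotl2, another target that also binds YAP, fell by 0.36 (SD 0.10). The targets did not all move down. Ccn2 lay above 0 on every array, at 0.33 ± 0.25, but was not called (adjusted p = 0.0604 by limma). Ankrd1 had 0.07 ± 0.07 and was not called. Sav1, a scaffold of the Hippo kinases, fell by 0.30 (SD 0.17), while its second probe gave -0.19 and was not called. Dimmer probes of 4 other genes, all members of the Hippo kinase pathway, were called lower, namely Lats2 (-0.22), Nf2 (-0.27), Stk3 (-0.21) and Stk4 (-0.21). No other probe of these genes was called, and their brightest probes gave -0.06, -0.08, -0.16 and 0.13 in the same order. With median centring 4 genes of the list were higher as well.

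Of 20 genes of the primary cilium and polycystic liver disease, 5 were lower and 0 were higher, with a median of -0.03. The 3 with the largest falls were Prkcsh, by 0.40 on the log2 scale (SD 0.13, n = 4), Ganab, by 0.27 (SD 0.08), and Alg8, by 0.26 (SD 0.08). All 3 encode proteins of glycoprotein processing in the endoplasmic reticulum that every liver cell uses, and variants in them cause polycystic liver disease in humans. The second Ganab probe gave -0.04 and was not called, and a dimmer probe of Sec63 was called lower at -0.31. The others called lower, Bbs4 (-0.22) and Cys1 (-0.19), each had an adjusted p of 0.0499 by limma. Their calls held in only 1 and 4 of 14 alternatives to the processing. Median centring left 2 of the list lower and 2 higher.

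Among 11 receptors of osteopontin, 3 integrin chains were higher and 1 was lower. Itgb3 was higher by 0.44 ± 0.04 log2 units (SD, n = 4) on its brightest probe, with an adjusted p of 0.00809 by limma, and -0.14 on the other, which was not called. Itgb5 had 0.23 ± 0.11 and Itgb8 had 0.20 ± 0.07. Itgb1 fell by 0.24 (SD 0.06), and its other probes gave -0.28 and 0.03 without a call. Dimmer probes of Itga8 and Itgav were called lower, at -0.19 and -0.17. With median centring 3 of the list were higher and 0 were lower.

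**Figure D4:**
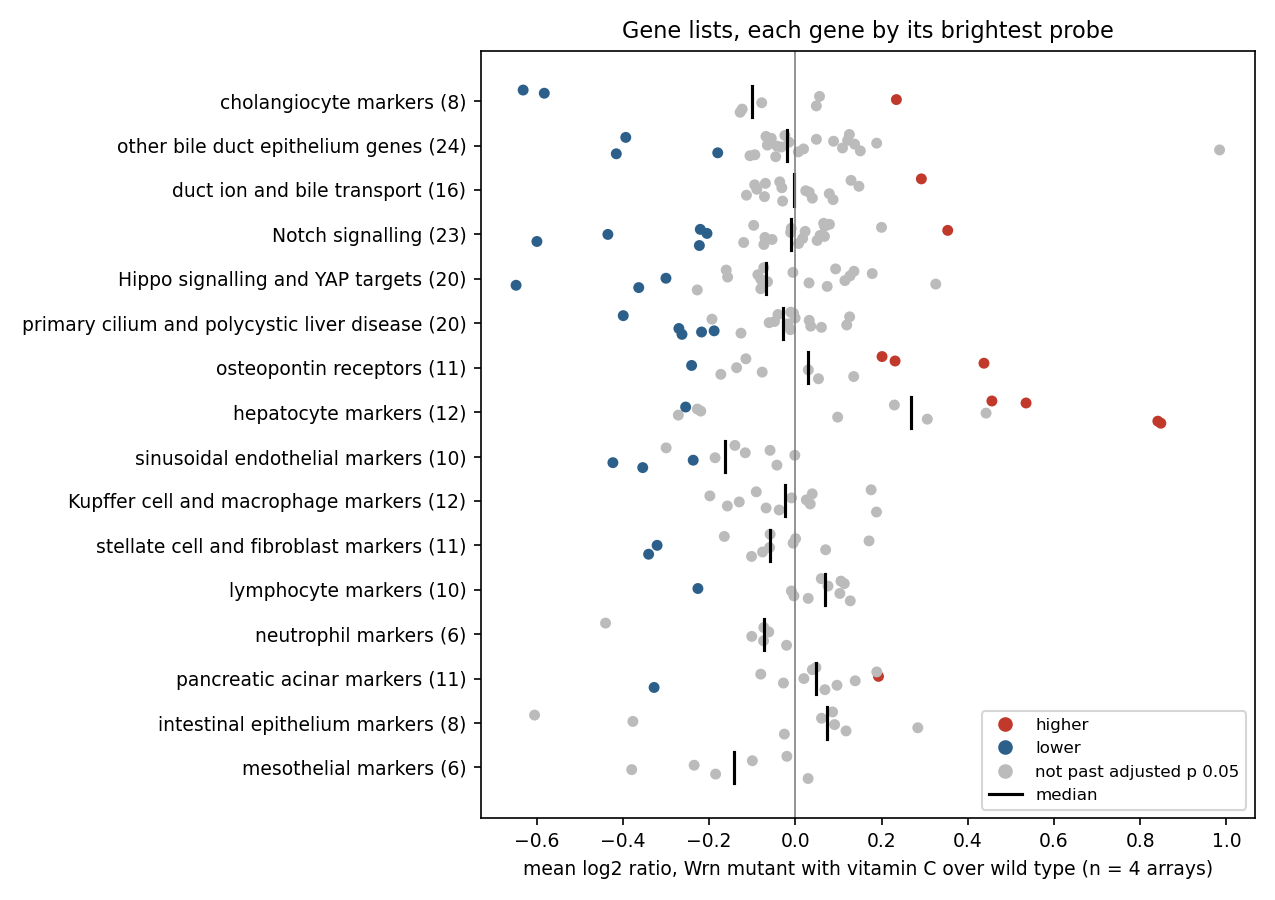
Log2 ratio of Wrn mutant with vitamin C over wild type of every measured gene in the marker list and the other lists, each gene on its brightest probe, with called genes marked and the median of each list drawn. The hepatocyte list has the highest median, 0.27, and the sinusoidal endothelial list the lowest, -0.16.

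Markers of the other cells that a piece of liver holds were read in the same way, and their part in the values above was not tested. Of 12 hepatocyte markers 4 were higher and 1 was lower, led by Alb (0.85 ± 0.21), Apoa2 (0.84 ± 0.18) and Tat (0.54 ± 0.26), while Hnf4a fell by 0.25 (SD 0.10) on 1 of 3 probes. Cyp2e1 (-0.27), G6pc (-0.22) and all Glul probes (-0.24 to -0.19) also had means below 0 and were not called. The remaining members had means above 0, and the list's median was 0.27. With median centring 8 of the list were higher and 0 were lower. Summed levels add linear intensities, so the brightest members of a list weigh most. The summed level of the hepatocyte list was 20.66 to 20.69 in mutant livers and 20.16 to 20.44 in wild-type livers, on the log2 scale. That of the 8 cholangiocyte markers was 13.78 to 13.99 in mutant livers and 14.19 to 14.54 in wild-type livers, a sum of linear intensities to which bright Spp1 contributed most. The sums of the other bile duct genes and of the duct transport genes overlapped between the groups. For the 24 other bile duct genes they were 17.73 to 17.77 in mutant and 17.65 to 17.89 in wild-type livers. For the 16 duct transport genes they were 15.31 to 15.49 and 15.34 to 15.39. Sums of the Notch and Hippo lists overlapped as well. Those of the cilium and polycystic liver disease list did not, with 16.85 to 16.99 in mutant and 17.01 to 17.23 in wild-type livers. Those of the osteopontin receptors did not overlap either, with 15.20 to 15.24 in mutant and 15.00 to 15.15 in wild-type livers. Of 10 sinusoidal endothelial markers 3 were lower, namely Gpr182 (by 0.42, SD 0.26), Clec4g (by 0.35, SD 0.20, on 1 of 3 probes) and Kdr (by 0.24, SD 0.09). A dimmer probe of Stab1 was called lower at -0.18, and with median centring 1 of the 10 was lower. The summed level of that list was 15.74 to 15.85 in mutant livers and 15.93 to 16.22 in wild-type livers.

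Macrophages and stellate cells, which can also make Spp1, were read from a list each. Among 12 Kupffer cell and macrophage markers 0 were called by limma and 0 had an unadjusted p under 0.05, with Adgre1 at 0.19 ± 0.34 and Vsig4 at 0.18 ± 0.33 having the smallest p. Their summed level was 15.88 to 16.33 in mutant livers and 15.97 to 16.66 in wild-type livers. Of 11 stellate cell and fibroblast markers, Col1a1 fell by 0.34 (SD 0.17) and Ecm1 by 0.32 (SD 0.21). Dimmer probes of Col1a1 gave -0.43, which was called, and 0.06, which was not, and the other Ecm1 probe gave 0.03 without a call. The summed level of the 11 was 16.68 to 16.86 in mutant livers and 16.81 to 17.00 in wild-type livers. With median centring 0 of the 11 were lower and 1 was higher, and the ratio of the brightest Ecm1 probe was 0.02.

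The remaining lists were small. Cd79b, a B cell receptor chain, fell by 0.23 (SD 0.04) among 10 lymphocyte markers. Neither neutrophil markers (S100a9 at -0.44 ± 0.36, Ngp at -0.10 ± 0.08) nor mesothelial markers (Upk1b at -0.23 ± 0.17, Lrrn4 at -0.19 ± 0.13) held a gene called by limma, though S100a9, Upk1b and Lrrn4 had an unadjusted p under 0.05. Of 11 pancreatic acinar markers, Ctrb1 was higher by 0.19 ± 0.08 and Cela2a fell by 0.33 (SD 0.22). Of 8 intestinal epithelium markers 0 were called by limma, with Lgals4 at -0.38 ± 0.37 and Fabp2 at 0.28 ± 0.30, both with an unadjusted p under 0.05. A dimmer probe of Fabp2 was called higher at 0.48, and with median centring 1 of the 8 was higher.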

How the data were processed

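Agilent Feature Extraction 10.5.1.1 read each spot's intensity, and the array annotation refers to mm9, per the file headers. Each deposited scanner file gives median foreground and background intensity per channel, processed signals and a log10 ratio. The authors' deposited table gives log2 ratios per array, a raw and an adjusted p-value per spot, and a moderated statistic as a score. They used limma, per the submitters' processing notes.

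Median intensities were corrected with normexp (offset 50) and normalized by loess (control spots weighted 0) using limma 3.58.1 under R 4.3.3. Control and outlier-flagged spots were dropped, spots of a probe were averaged, and 39080 probes well above background on at least 3 of 4 arrays in a channel were kept. The mean log2 ratio was tested against 0 (lmFit, then eBayes), and p-values were adjusted by Benjamini-Hochberg. Levels came after Aquantile scaling and are open to dye bias. The ratio within an array pairs mutant and wild type. The labels call the 4 arrays biological replicates, and their number limits precision.

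The markers, the 15 other lists and the tests were chosen with earlier results of these data known. All markers were named on every probe. From each other list up to 3 called genes per direction with the largest ratios were named, or else the 2 of smallest p. Some further genes were named after the values were seen, as values only. Of 204 listed genes 200 were measured. Symbols were updated through a RefSeq table (GRCm38.p6), whose coordinates were not used. The fit was tested on simulated data. Alternatives covered background, normalization, filter, moderation, array weights, pairing, probe rule, the authors' ratios and leaving out each array. Of the sample columns, 0 were left aside.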

Additional observations from a re-analysis of the deposited data

Results flagged for a closer look

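Among 42 groups of 4 marker values, 4 held a liver whose gap to its nearest neighbour was a large share of the group's range, above Dixon's 95% critical value for 4 samples; chance gives about 1 such group in 20. In all of them the liver that stood apart came from array 1 or was a dim reading. For Cftr A_51_P305896 the mutant of array 1 had a log2 level of 6.93, against 6.66 to 6.67 in the other mutants, a share of 0.956. The wild-type liver of array 1 had 7.06, against 6.77 to 6.82 in the other wild-type livers, a share of 0.832. For Pkhd1 A_52_P576007 the wild-type liver of array 1 had 8.49, against 7.86 to 7.96 in the others, a share of 0.850. For Cftr A_52_P452881, which was not well above background in any liver, the wild-type liver of array 3 had 5.97, against 6.13 to 6.16 in the others, a share of 0.839. Array 1 had the fewest probes well above background, and the lowest log2 level of such a probe was 7.12 in its mutant channel and 7.02 in its wild-type channel, against 6.15 to 6.35 and 6.16 to 6.24 on the other arrays.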

How the results depend on the processing

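Spp1 A_51_P358765 kept its direction in 13 of 13 alternatives and its call in 10, with log2 ratios from -0.78 to -0.43. Sox9 A_52_P577484 kept its call in 8 of 13, Pkhd1 A_52_P377941 in 8 and Pkhd1 A_51_P322482 in 7, all with 1 direction. Marker probes called lower numbered 3, but 1 with Agilent's processed signals, 6 with median centring, 0 with unpaired channels, which is the fit without the replicate block, and 0 to 2 without 1 array. Over all probes, median centring called 3011 lower and 4292 higher, against 2655 and 2421 with loess. Those called higher numbered 1, but 0 with unpaired channels and 0 without any 1 array. Changed probes numbered 5076, but 1196, 26 and 160 to 2269 with processed signals, unpaired channels and 1 array left out, and 273 at 1.5-fold or more; changed genes, with 5448 probes of no symbol tested as themselves, numbered 3335, but 764, 22 and 106 to 1509; changed genes of the other lists numbered 35, but 8, 2 and 2 to 18. Calls that were higher made up 47.7% of all calls, but 58.8% with median centring, 66.4% with a robust trend, 61.5% with unpaired channels and 40.8% with Agilent's processed signals, and 32.3% to 45.0% without 1 array. Values that changed sign were Sox9 A_51_P451606 (-0.068 with median centring, -0.0074 to 0.034 without 1 array), Krt19 (-0.044 with array weights, -0.38 to 0.31 without 1 array), Krt7 A_51_P312348 (-0.13 to 0.0026 without 1 array), Cldn3 (0.10) and Ecm1 (0.024) with median centring, and Pkhd1 (-0.028 as the mean of its probes). Median centring also called Krt7 A_52_P410685, Epcam and Cftr A_51_P305896 lower, and the authors' ratios called the last of these, which made 4 lower. The cause was not tested. Signal over background limits Cftr most.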

Other observations

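The Krt19 level of the mutant on array 3 was high beside a short list of other genes, found after the values were seen. Among 38927 probes with a level in all 8 livers, Krt19 ranked 4 by how far that mutant lay above the highest of the other 7 livers, with an excess of 1.25 on the log2 scale. Dmbt1, a secreted mucosal scavenger protein made by duct and gut epithelium, ranked 1 with an excess of 3.90: its level was 12.19 in that mutant, against 7.51 to 7.73 in the other 3 mutants and 7.53 to 8.29 in wild-type livers. Xlr4b had an excess of 1.55, Muc3, a membrane mucin of gut epithelium, had 1.27, and S100g, a calcium-binding protein, had 1.05. These were the 5 probes with an excess above 1 in that mutant, and 33 probes had one in the wild-type liver of array 4. The other 12 marker probes did not exceed the other livers in that mutant. Tff3, a trefoil peptide of mucous epithelium, had ratios of -0.68, -1.38, 0.87 and -1.23, with array 3 again the one above 0, and its mean of -0.61 ± 1.03 (SD, n = 4) was not called by limma (adjusted p = 0.263). Tff3 was 1 of the 8 intestinal epithelium markers, and the list as a whole was not high in the mutant of array 3. Its summed log2 level there was 14.94, against 15.07 to 15.36 in the other mutants and 14.81 to 15.21 in wild-type livers.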
